A study of Mus musculus with 9 samples.

Results

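The collagen genes are the 41 of 33495 genes in the deposited mouse table whose name is Col, a number, the letter a and a chain number. A collagen molecule is a triple helix of 3 alpha chains, each coded by its own gene, and the members were grouped by the kind of assembly their chains build: 11 fibrillar, 6 basement membrane and 24 other genes. The other group held 9 fibril-associated chains, 4 beaded-filament, 4 transmembrane, 3 short-chain network and 2 multiplexin genes, 1 anchoring-fibril gene and 1 gene put in no class, Col28a1. Fibrillar collagens such as types I, III and V form the banded fibres of connective tissue. Type IV forms the network of basement membranes, the thin sheets on which epithelia rest, and is an early product of the extraembryonic endoderm of the mouse embryo. Collagen chains are hydroxylated and folded in the endoplasmic reticulum, trimmed by proteases after secretion, cross-linked by lysyl oxidases and read by cell-surface receptors.

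RNA-seq was run on RF8, a mouse embryonic stem (ES) cell line, transfected with the L122A homeodomain mutant of Nanog, with wild-type Nanog (WT) or with enhanced green fluorescent protein (EGFP). Nanog is a homeodomain transcription factor of the pluripotent state. Each transfectant was grown in retinoic acid at 5 µM in place of LIF (RA), in neither (no-LIF), or in LIF at 1000 units per ml (LIF), the cytokine that keeps mouse ES cells undifferentiated. That makes 9 libraries, 1 for each combination, with 24166395 to 28714988 counts each. All transfectants were routinely kept in serum medium with puromycin, and the sources used here do not give the promoter of the constructs, whether a line is 1 clone or a pool, or the days in culture. The columns read as LIF carry a different code word in the file and were assigned by elimination, since the words for the other cultures match the labels. Column names with L122 were read as L122A.

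Nanog itself had 259 CPM (counts scaled for library depth over the tested genes, with TMM factors) in L122A cells and 195 CPM in WT cells under RA, against 0.873 CPM in EGFP cells. Without LIF it had 130 and 168 CPM in L122A and WT cells, against 291 CPM in EGFP cells. With LIF the values were 240 and 223 CPM, against 385 CPM in EGFP cells, so the Nanog count exceeded that of EGFP cells under RA and not in the other cultures. The gene counts do not separate the construct from the endogenous gene. The 8 ES cell markers summed to 695, 304 and 16.5 CPM in L122A, WT and EGFP cells under RA, and to between 2167 and 5441 CPM in the 6 libraries of the other cultures. All 8 were at 1 CPM or more in each of those 6 libraries. Nanog is among the 8 and gave 259 and 195 CPM of the L122A and WT sums under RA. Those sums may thus hold counts from the construct.

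Summed over the 41 members, collagen transcripts reached 284, 892 and 1330 CPM in L122A, WT and EGFP cells under RA. The sums were 69.5, 86.0 and 159 CPM without LIF, and 53.2, 45.9 and 150.1 CPM with LIF. Every RA library lay above all 6 libraries of the other cultures, and within each culture the EGFP library was the highest. The RA sum was 5.35, 19.4 and 8.86 times the LIF sum in L122A, WT and EGFP cells. In bulk RNA, more cells that make collagen and more collagen RNA per cell cannot be told apart. The sums per length, in FPKM (fragments per kilobase and depth), were 51.2, 152.9 and 184 under RA, 8.77, 12.6 and 22.2 without LIF, and 7.59, 5.95 and 22.7 with LIF.

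**Figure D1:**
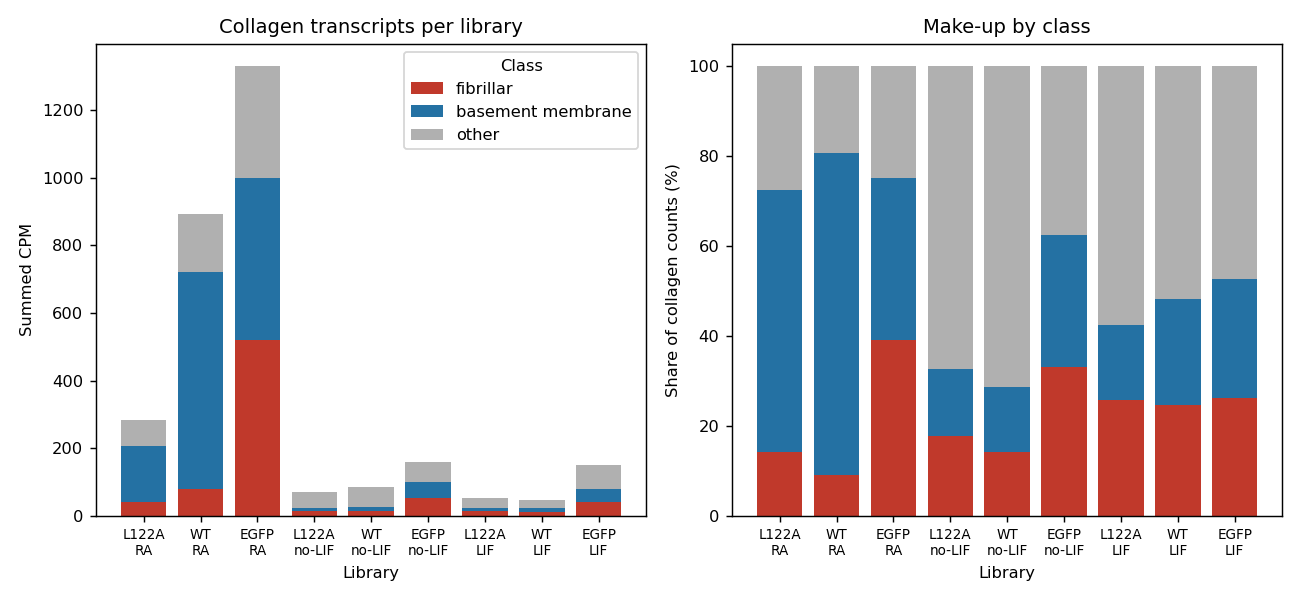
Left, summed CPM of the collagen genes in each of the 9 libraries, stacked by class (y axis, CPM). Right, the share of each class in the library's collagen counts (y axis, %). Under RA the basement membrane share was 58.5% in L122A, 71.8% in WT and 36.0% in EGFP cells, and the fibrillar share was 14.1%, 8.96% and 39.1%.

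The fibrillar and basement membrane classes differed in which transfectant was highest under RA. Basement membrane transcripts summed to 166 CPM in L122A cells and 641 CPM in WT cells, against 479 CPM in EGFP cells. Fibrillar transcripts summed to 40.003 CPM in L122A cells and 79.9 CPM in WT cells, against 519 CPM in EGFP cells. Fibrillar chains thus made up 14.1% and 8.96% of the collagen counts in L122A and WT cells, against 39.1% in EGFP cells. Without LIF the fibrillar sums were 12.3 and 12.3 CPM in L122A and WT cells, against 52.5 CPM in EGFP cells. With LIF they were 13.7 and 11.3 CPM, against 39.4 CPM. Each combination has 1 library, so these sums and shares carry no test.

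By level per length, the highest collagen transcript was Col4a1 in all 3 RA libraries and Col18a1 in all 6 others. Col4a1 codes for the alpha-1 chain of type IV and had 20.1, 77.1 and 48.8 FPKM in L122A, WT and EGFP cells under RA. Col18a1 codes for the multiplexin chain from which endostatin is cut, and it had 2.86, 5.42 and 5.20 FPKM without LIF and 2.61, 1.51 and 8.17 FPKM with LIF. Col4a1 held 38.3% (exact 95% binomial interval 37.4 to 39.3), 48.1% (47.6 to 48.7) and 22.3% (21.9 to 22.7) of the collagen counts in L122A, WT and EGFP cells under RA. Col18a1 held 15.7% (15.0 to 16.5) and 6.71% (6.42 to 7.003) of them in the L122A and WT libraries under RA. Intervals cover counting error only, and reads are not independent molecules.

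**Figure D2:**
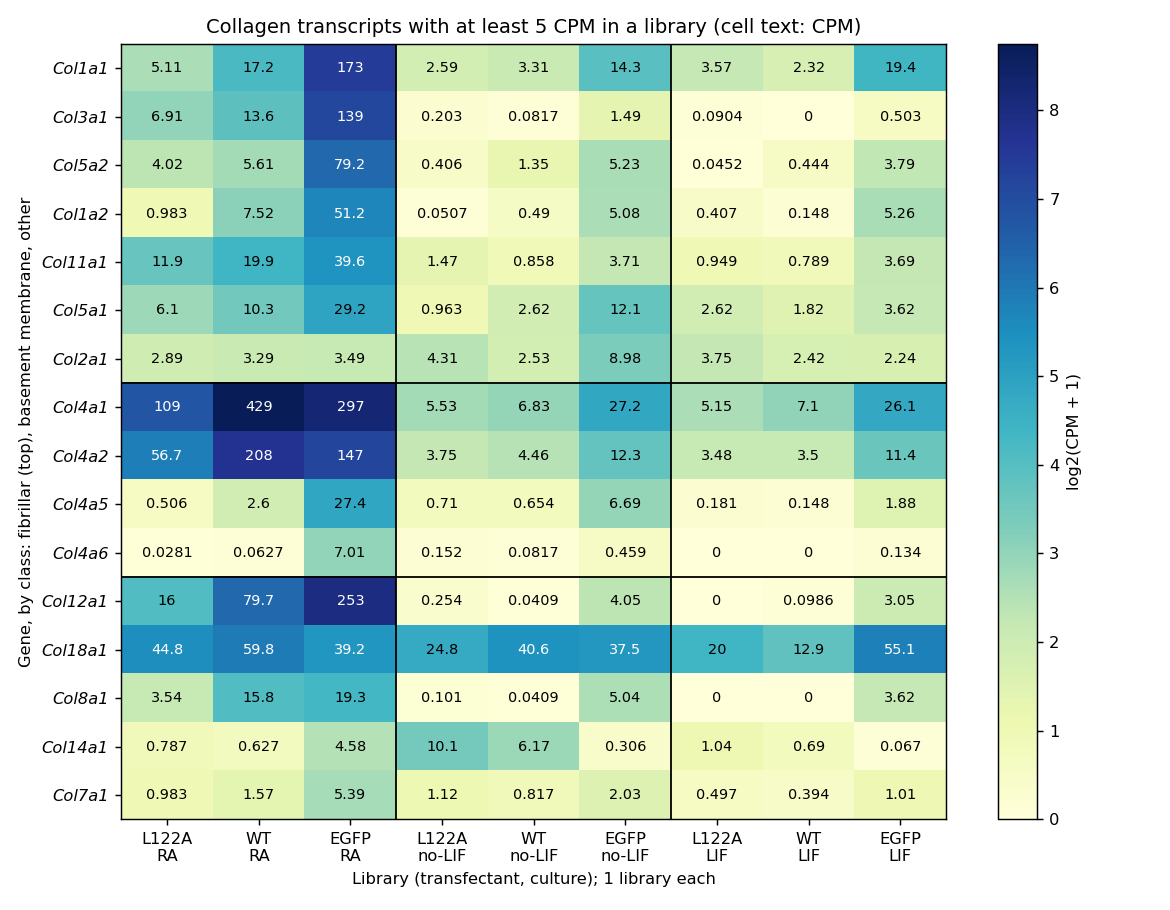
CPM of the 16 collagen genes that reach 5 CPM in a library (rows, by class, with the symbol on the y axis) in each of the 9 libraries (columns, by culture and then transfectant). Colour gives log2(CPM + 1) and the number in each cell is the CPM. Col4a1 and Col4a2 are high in all 3 RA columns, while Col1a1, Col3a1, Col5a2, Col1a2 and Col4a5 are high in the EGFP RA column.

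Of the 41 members, 16 reached 5 CPM in at least 1 library and are described by their values in every library. The other 25 stayed at or below 4.64 CPM, and 7 of those had no library above 10 counts. A gene was tested if 3 or more of the 9 libraries held it at 1 CPM or above. For this filter alone, CPM were scaled by the library's total counts without TMM factors. That left 13996 genes, among them 21 members, and set 20 members aside. None of the 21 passed that filter on RA libraries alone. Col6a1 and Col22a1 have gene models of only 413 and 1081 bases in the file, so their low counts refer to short stretches of those genes.

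Under RA against LIF, 13 of the 21 tested members rose and 1 fell at an adjusted p below 0.05, where 24.5% of all tested genes rose and 23.8% fell. The test was edgeR's quasi-likelihood test in an additive fit of culture and transfectant, with Benjamini-Hochberg adjustment over all tested genes. The spread in this fit is the departure of the 9 libraries from additivity, as no combination has a replicate. The median log2 fold change of the tested members was 2.32, and that of all tested genes was 0.01. By class, 6 of 8 tested fibrillar, all 3 tested basement membrane and 4 of 10 tested other members rose. Under RA against no-LIF, 10 members rose and 0 fell, where 22.6% of all tested genes rose and 21.9% fell. The 2 comparisons share the RA libraries.

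The single libraries gave the size in each transfectant. Of the members with at least 5 CPM in either library, 7 of 8 were at least 2-fold higher in the RA than in the LIF library of L122A cells, where 20.7% of all genes at that level were. The count was 11 of 11 in WT cells, where 24.8% of genes were, and 13 of 14 in EGFP cells, where 23.8% were. Col18a1 was the exception in EGFP cells, and Col1a1 in L122A cells, at 1.43 times. A member that reached 5 CPM in the RA library alone is higher there by the entry rule. In L122A and WT cells this held for all members counted but Col4a1 and Col18a1. In EGFP cells it held for all but Col1a1, Col1a2, Col4a1, Col4a2 and Col18a1. All genes in the shares entered by the same rule.

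**Figure D3:**
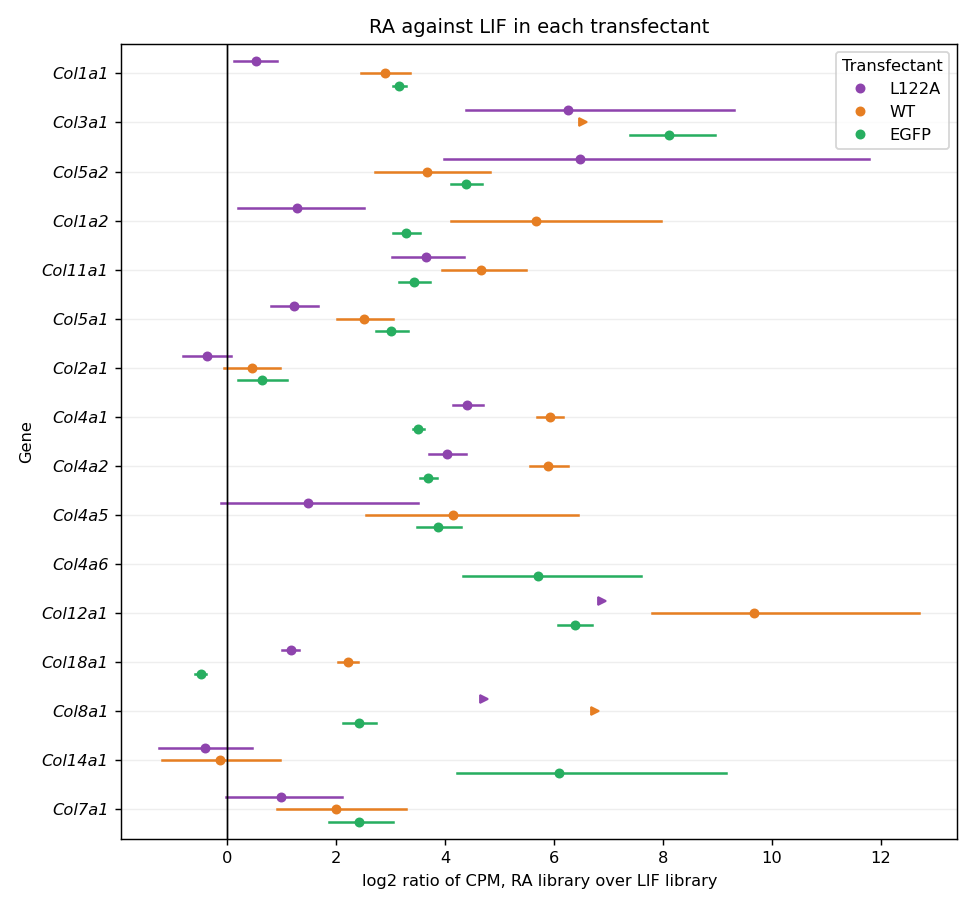
Log2 ratio of CPM in the RA library over the LIF library (x axis) for the same 16 genes (y axis) in L122A (purple), WT (orange) and EGFP (green) cells. Bars are exact 95% Poisson intervals of counting error, triangles are lower bounds where the LIF library had 0 counts, and Col4a6 has no ratio in L122A and WT cells, which had 2 counts or fewer. Col18a1 lies right of 0 in L122A (ratio 2.24) and WT cells (4.63) and left of it in EGFP cells (0.710).

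Among the fibrillar genes, Col3a1 moved farthest under RA. Col3a1 codes for the single chain of type III, found with type I in soft, extensible tissue, and lies on chromosome 1 from 45368383 to 45406551 (mm9, plus strand). It had 6.91, 13.6 and 139 CPM in L122A, WT and EGFP cells under RA. It had 0.203, 0.0817 and 1.49 CPM without LIF, and 0.0904, 0 and 0.503 CPM with LIF. The RA libraries did not overlap those of either other culture, and the lowest RA value was that of L122A cells. The fitted log2 fold change was 7.92 ± 0.54 (SE) over LIF (adjusted p = 1.45e-04) and 6.36 ± 0.48 over no-LIF (adjusted p = 2.31e-04).

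The 2 chains of type I, the main collagen of bone, skin and tendon, were highest in EGFP cells in each culture. Col1a1 (chromosome 11, 94797538 to 94814356) had 5.11, 17.2 and 173 CPM in L122A, WT and EGFP cells under RA, 2.59, 3.31 and 14.3 CPM without LIF, and 3.57, 2.32 and 19.4 CPM with LIF. The RA values of L122A and WT cells lay within the range that the other cultures spanned, and the EGFP value lay above it. Its RA library was 1.43 (95% Poisson interval 1.09 to 1.89), 7.42 (5.51 to 10.2) and 8.92 (8.18 to 9.73) times the LIF library in L122A, WT and EGFP cells. Col1a1 rose by 2.32 ± 0.53 over LIF (log2, adjusted p = 0.00834), a call that was lost on leaving out the WT LIF library (2.04, adjusted p = 0.0535). Col1a2 (chromosome 6, 4454814 to 4491543) had 0.983, 7.52 and 51.2 CPM under RA, 0.0507, 0.490 and 5.08 CPM without LIF, and 0.407, 0.148 and 5.26 CPM with LIF. It rose by 3.29 ± 0.67 over LIF (adjusted p = 0.00513) although the L122A RA value lay below the EGFP values of both other cultures.

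Type V and type XI chains sit inside type I and type II fibrils and are known to control their diameter. Col5a2 had 4.02, 5.61 and 79.2 CPM in L122A, WT and EGFP cells under RA, 0.406, 1.35 and 5.23 CPM without LIF, and 0.0452, 0.444 and 3.79 CPM with LIF. Col11a1 had 11.9, 19.9 and 39.6 CPM under RA, 1.47, 0.858 and 3.71 CPM without LIF, and 0.949, 0.789 and 3.69 CPM with LIF. The Col11a1 RA libraries did not overlap the others, whereas the L122A RA value of Col5a2 lay below the EGFP no-LIF value. Over LIF, Col5a2 rose by 4.38 ± 0.49 (log2, adjusted p = 5.00e-04) and Col11a1 by 3.90 ± 0.37 (adjusted p = 3.26e-04).

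Col5a1 had 6.10, 10.3 and 29.2 CPM under RA, 0.963, 2.62 and 12.1 CPM without LIF, and 2.62, 1.82 and 3.62 CPM with LIF. It rose by 2.14 ± 0.52 over LIF (log2, adjusted p = 0.0105), a call lost without the WT LIF library (1.99, adjusted p = 0.0627). Over no-LIF it rose by 1.80 ± 0.51 (adjusted p = 0.0203), and leaving out any 1 of the WT RA, EGFP RA, L122A no-LIF or WT no-LIF libraries lost that call (1.37 to 1.80, adjusted p 0.0519 to 0.0846). Col2a1, the chain of the cartilage collagen type II, was the one fibrillar gene above 5 CPM that did not pass the test under RA. It had 2.89, 3.29 and 3.49 CPM under RA, 4.31, 2.53 and 8.98 CPM without LIF, and 3.75, 2.42 and 2.24 CPM with LIF, so the cultures overlapped. Its log2 fold change over LIF was 0.21 ± 0.46 (adjusted p = 0.732).

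Col5a1 also rose under RA and had a start window, but it is not shown. The sequences before the start of 3 other fibrillar genes that rose under RA are printed as chosen examples of start regions that differ. They are the 250 bases before the RefSeq start in GRCm38.p6, at chr1:45311288-45311537 for Col3a1, chr6:4505368-4505617 for Col1a2 and chr3:114030290-114030539 for Col11a1, all on the plus strand. Capitals mark matches, on either strand, to any of 5 motifs, and no match shares a base with another. The motifs were TATAAA for the core promoter box of that name, CCAAT for the box bound by the NF-Y factor, and GGGCGG for the GC box bound by Sp factors. AGGTCA was searched as the half-site of retinoic acid receptors, and GGAATG as the site of TEAD factors.
Col3a1: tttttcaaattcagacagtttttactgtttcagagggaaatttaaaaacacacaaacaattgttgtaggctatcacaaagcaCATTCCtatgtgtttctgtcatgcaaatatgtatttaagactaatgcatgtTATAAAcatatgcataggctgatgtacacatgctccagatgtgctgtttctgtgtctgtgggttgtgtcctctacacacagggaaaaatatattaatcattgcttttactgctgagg
Col1a2: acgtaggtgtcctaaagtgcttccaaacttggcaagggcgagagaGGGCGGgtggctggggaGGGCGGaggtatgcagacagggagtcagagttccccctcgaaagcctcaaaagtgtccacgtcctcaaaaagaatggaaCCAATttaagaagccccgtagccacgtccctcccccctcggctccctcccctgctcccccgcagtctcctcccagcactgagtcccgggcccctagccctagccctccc
Col11a1: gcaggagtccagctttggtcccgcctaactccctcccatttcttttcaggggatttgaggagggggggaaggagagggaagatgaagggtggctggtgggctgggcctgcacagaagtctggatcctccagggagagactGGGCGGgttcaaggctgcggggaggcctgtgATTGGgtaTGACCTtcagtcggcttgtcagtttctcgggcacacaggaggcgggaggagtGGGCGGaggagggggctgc

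The Col3a1 window held a TATAAA and a GGAATG match and no GGGCGG. The Col1a2 window held 2 GGGCGG matches and a CCAAT, and the Col11a1 window held 2 GGGCGG matches, a CCAAT and an AGGTCA match. Start windows were at hand for 33 of the 41 members, in 36 entries. Of those entries 55.6% held GGGCGG, 33.3% CCAAT, 19.4% AGGTCA, 13.9% TATAAA and 11.1% GGAATG. Of all 32851 windows of the same length, 32.7% held GGGCGG, 33.8% CCAAT, 14.0% AGGTCA, 12.4% TATAAA and 12.6% GGAATG. A match is a description of letters and was not read as a bound site.

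The main basement membrane genes, Col4a1 and Col4a2, rose under RA, and their RA library was the highest of each transfectant. Col4a1 (chromosome 8, 11198423 to 11312804, minus strand) had 109, 429 and 297 CPM in L122A, WT and EGFP cells under RA. It had 5.53, 6.83 and 27.2 CPM without LIF, and 5.15, 7.10 and 26.1 CPM with LIF. Each RA library lay above every other library, and under RA the WT library was the highest and L122A the lowest. Col4a1 rose by 4.71 ± 0.52 over LIF (log2, 26.2-fold, adjusted p = 5.78e-04). Its RA library was 21.2 (17.6 to 25.7), 60.5 (51.3 to 71.8) and 11.4 (10.6 to 12.3) times the LIF library in L122A, WT and EGFP cells. Those intervals cover counting error in single libraries and do not test whether the transfectants differed. The difference between the Nanog and the EGFP response was 1.95 ± 1.03 (log2) in the fit described below and was not called.

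Col4a2 (chromosome 8, 11312805 to 11449287, plus strand) codes for the partner chain, since the common type IV molecule joins 2 alpha-1 chains and 1 alpha-2 chain. It had 56.7, 208 and 147 CPM in L122A, WT and EGFP cells under RA, 3.75, 4.46 and 12.3 CPM without LIF, and 3.48, 3.50 and 11.4 CPM with LIF. The order of the libraries within each culture was that of Col4a1. Col4a2 rose by 4.59 ± 0.47 over LIF (adjusted p = 4.12e-04) and 4.43 ± 0.46 over no-LIF (adjusted p = 5.86e-04). The calls on Col4a1, Col4a2, Col3a1, Col1a2, Col5a2, Col11a1 and Col12a1 over both LIF and no-LIF were kept on leaving out each library in turn.

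Col4a1 and Col4a2 lie head to head with 0 bases between them in the file's mm9 coordinates and are known to share a start region. In the RefSeq starts of GRCm38.p6 the 2 genes overlap by 22 bases at chr8:11312805-11312826 (plus strand shown), printed because it holds the annotated start of each gene. Motif matches are not marked in this stretch, which includes a GGGCGG.
Col4a1/Col4a2: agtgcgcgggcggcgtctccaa
The file's mm9 models, on which the counts rest, do not overlap. The ratio of Col4a1 to Col4a2 per length was 1.86, 1.99 and 1.94 in L122A, WT and EGFP cells under RA. It was 1.42, 1.48 and 2.13 without LIF, and 1.43, 1.96 and 2.21 with LIF. The 9 ratios thus lay between 1.42 and 2.21 while the level of Col4a1 ranged from 5.15 to 429 CPM.

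Col4a5 and Col4a6, the chains of a type IV network found in some epithelial and smooth muscle basement membranes, are also a head-to-head pair, with 1308 bases between them on chromosome X. Col4a5 had 0.506, 2.60 and 27.4 CPM in L122A, WT and EGFP cells under RA, 0.710, 0.654 and 6.69 CPM without LIF, and 0.181, 0.148 and 1.88 CPM with LIF. It rose by 3.38 ± 0.60 over LIF (log2, adjusted p = 0.00278) and had 1.38 ± 0.54 over no-LIF (adjusted p = 0.0664). Col4a6 had 225 counts, or 7.01 CPM, in EGFP cells under RA and at most 12 counts in any other library. It did not pass the filter and was not tested. Unlike Col4a1 and Col4a2, this pair had low values in L122A and WT cells under RA, where Col4a6 had 1 and 2 counts. Col4a3 and Col4a4, the remaining type IV chains, had at most 25 and 10 counts in a library.

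**Figure D4:**
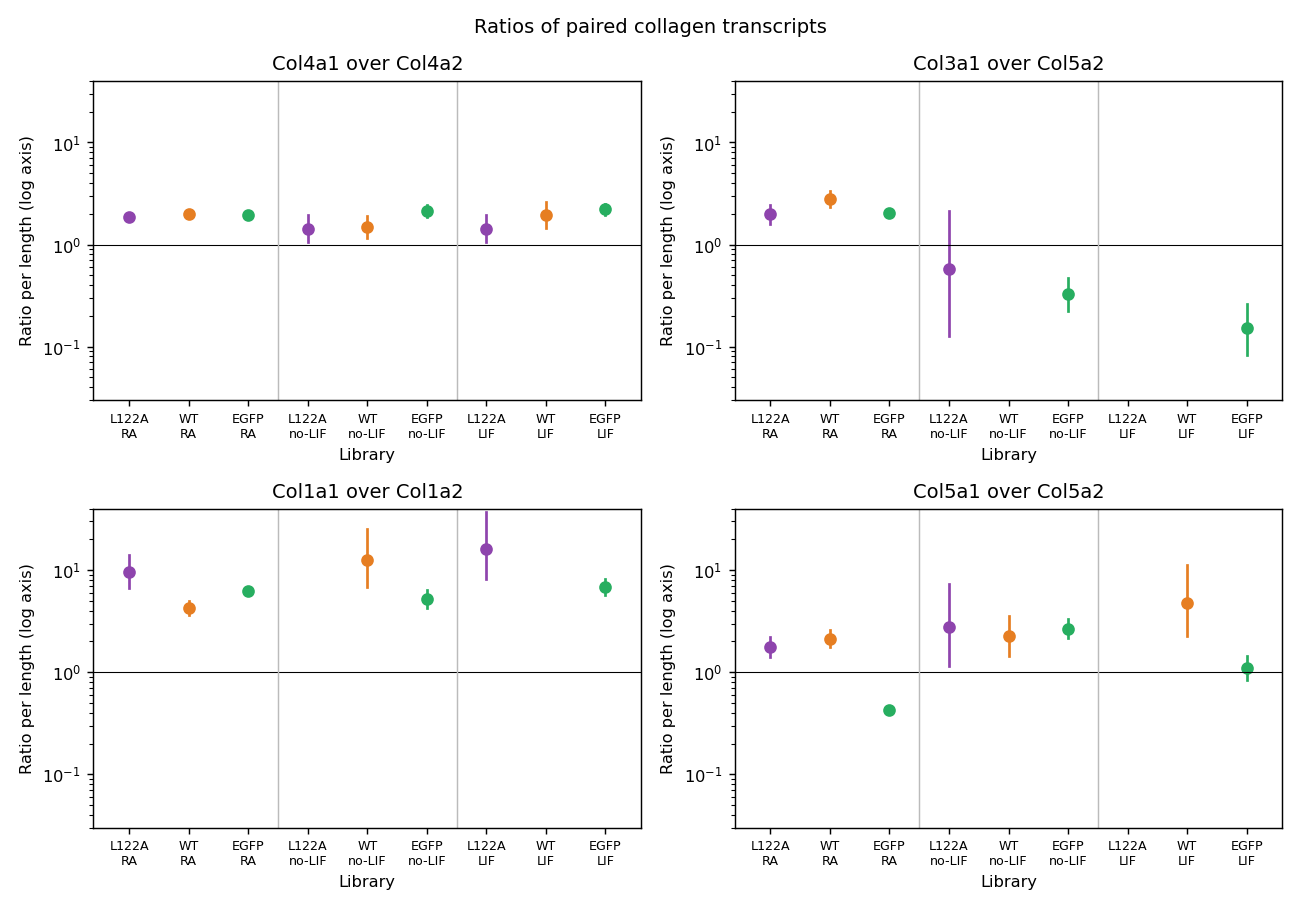
Ratio of 2 collagen transcripts per length of gene model (y axis, log scale) in each of the 9 libraries (x axis), for Col4a1 over Col4a2, Col3a1 over Col5a2, Col1a1 over Col1a2 and Col5a1 over Col5a2. Points are ratios and bars 95% intervals of counting error. Libraries with 3 counts or fewer in either gene are left out. Col4a1 over Col4a2 stays between 1.42 and 2.21, and Col5a1 over Col5a2 is lowest in EGFP cells under RA, at 0.427.

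Ratios of other pairs of chains also varied between libraries. Col5a1 over Col5a2, chains of the same molecule, was 1.76 (1.42 to 2.19) and 2.14 (1.78 to 2.58) in L122A and WT cells under RA, against 0.427 (0.396 to 0.461) in EGFP cells. Without LIF the same ratio was 2.76 (1.15 to 7.28) and 2.25 (1.46 to 3.54) in L122A and WT cells, against 2.68 (2.18 to 3.30) in EGFP cells. Col3a1 and Col5a2 are neighbours on chromosome 1, tail to tail with 24614 bases and no gene between them. Col3a1 over Col5a2 was 1.97, 2.79 and 2.02 in L122A, WT and EGFP cells under RA. In EGFP cells it was 0.326 (0.223 to 0.469) without LIF and 0.152 (0.0825 to 0.262) with LIF. Col1a1 over Col1a2, which in the type I molecule are joined as 2 chains and 1 chain, was 9.62 (6.67 to 14.2), 4.23 (3.63 to 4.94) and 6.23 (5.90 to 6.59) under RA. It was 5.21 (4.27 to 6.403) in EGFP cells without LIF and 6.81 (5.70 to 8.17) with LIF. In L122A cells with LIF it was 16.2 (8.13 to 36.8), from 9 Col1a2 counts. In WT cells without LIF it was 12.5 (6.77 to 25.2), from 12 Col1a2 counts. The L122A no-LIF and WT LIF libraries had only 1 and 3 Col1a2 counts.

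Among the other members, Col12a1 had the largest rise. It codes for a fibril-associated chain that lies on the surface of type I fibrils and is known from dense connective tissue. Col12a1 had 15.96, 79.7 and 253 CPM in L122A, WT and EGFP cells under RA. It had 0.254, 0.0409 and 4.05 CPM without LIF, and 0, 0.0986 and 3.05 CPM with LIF. The RA libraries did not overlap the others. It rose by 7.62 ± 0.83 over LIF (log2, adjusted p = 5.47e-04) and 7.10 ± 0.81 over no-LIF (adjusted p = 7.69e-04). By single libraries the RA value in L122A cells was at least 118-fold higher than with LIF, taking 3 counts as the limit that the 0 counts allow, and in EGFP cells it was 83.0 (67.5 to 103.2) times higher.

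Col8a1, a short chain of the hexagonal network under the corneal and vascular endothelium, had 3.54, 15.8 and 19.3 CPM in L122A, WT and EGFP cells under RA. It had 0.101, 0.0409 and 5.04 CPM without LIF, and 0, 0 and 3.62 CPM with LIF. The 2 Nanog transfectants thus had at most 2 counts in each of the other cultures, while EGFP cells had over 100, and the L122A RA value lay below both EGFP values. Col8a1 rose by 5.71 ± 1.34 over LIF (log2, adjusted p = 0.00975). Its rise over no-LIF, 5.10 ± 1.30 (adjusted p = 0.0152), was lost on leaving out any 1 of the L122A RA, WT RA, L122A no-LIF or WT no-LIF libraries (3.35 to 5.16, adjusted p 0.0503 to 0.0640). The 250 bases before its start, at chr16:57754738-57754987 on the minus strand of GRCm38.p6, are shown beside those of the fibrillar genes because they hold 4 GC boxes, read on the opposite strand and marked in capitals, and no TATAAA.
Col8a1: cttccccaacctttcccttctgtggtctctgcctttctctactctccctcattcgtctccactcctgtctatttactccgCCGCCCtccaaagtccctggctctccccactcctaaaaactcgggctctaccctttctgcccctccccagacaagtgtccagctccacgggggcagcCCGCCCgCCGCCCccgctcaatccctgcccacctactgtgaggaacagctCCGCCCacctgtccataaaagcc

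Col18a1 departed from this picture. It had 44.8, 59.8 and 39.2 CPM in L122A, WT and EGFP cells under RA, 24.8, 40.6 and 37.5 CPM without LIF, and 20.0, 12.9 and 55.1 CPM with LIF. The cultures overlapped, and its log2 fold change of 0.88 ± 0.46 over LIF did not pass the test (adjusted p = 0.150). Its RA library was 2.24 (2.01 to 2.49) and 4.63 (4.07 to 5.29) times the LIF library in L122A and WT cells, against 0.710 (0.660 to 0.765) in EGFP cells. The difference between the Nanog and the EGFP response was 2.16 ± 0.56 (log2, adjusted p = 0.273) in the fit described below.

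Col7a1, the chain of the fibrils that anchor epidermis to dermis, had 0.983, 1.57 and 5.39 CPM under RA, 1.12, 0.817 and 2.03 CPM without LIF, and 0.497, 0.394 and 1.01 CPM with LIF. It rose by 1.86 ± 0.51 over LIF (log2, adjusted p = 0.0168), a call lost on leaving out any 1 of the WT RA, EGFP RA, WT LIF or EGFP LIF libraries (1.49 to 1.84, adjusted p 0.0628 to 0.0849). Of the members below 5 CPM, the transmembrane collagen gene Col23a1 rose by 2.36 ± 0.74 (adjusted p = 0.0286). Leaving out the L122A RA, WT RA, WT LIF or EGFP LIF library lost that call (1.83 to 2.51, adjusted p 0.0691 to 0.127). Col17a1, the hemidesmosomal transmembrane collagen of skin, was the member that fell. It had 0.309, 0.564 and 0.125 CPM under RA, against 2.22, 1.63 and 1.51 CPM with LIF, and fell by 2.62 on the log2 scale (SE 0.59, adjusted p = 0.00734).

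The members that stayed below 5 CPM in every library included chains of types VI, IX and XIII. Col9a2 and Col9a3 code for chains of the cartilage collagen type IX. Col9a2 had 1.35, 0.877 and 0.0935 CPM in L122A, WT and EGFP cells under RA, 2.48, 2.66 and 1.57 CPM without LIF, and 1.67, 1.68 and 1.31 CPM with LIF, and the EGFP library was the lowest of each culture. Col9a3 lay between 1.21 and 4.64 CPM in the 9 libraries, while Col9a1 had at most 2 counts. Col13a1, a transmembrane collagen of the neuromuscular junction, had 109 counts, or 3.06 CPM, in L122A cells under RA and at most 0.690 CPM in the other libraries. Of the beaded-filament chains of type VI, Col6a2 lay between 0.235 and 1.72 CPM, and Col6a3 had at most 13 counts.

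LIF withdrawal alone was the comparison with the fewest calls among the cultures. None of the 21 tested members passed the edgeR test for no-LIF against LIF, where 0.0714% of all tested genes did. In that test 4 members and 1222 of the 13996 tested genes had an unadjusted p below 0.05. DESeq2 called 0 members as well, and leaving out the EGFP RA library gave 1 call. The share of all genes is not given for that 1 call. The median log2 fold change of the members was 0.47, and that of all tested genes was 0.00. Col14a1, a fibril-associated chain of tendon and skin, differed by transfectant without LIF. It had 10.1 and 6.17 CPM in L122A and WT cells, against 0.306 CPM in EGFP cells. Under RA it had 0.787 and 0.627 CPM in L122A and WT cells, against 4.58 CPM in EGFP cells. With LIF it had 1.04 and 0.690 CPM, against 0.0670 CPM. Col14a1 was thus higher in both Nanog transfectants than in EGFP cells in 2 cultures and lower under RA.

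Across the 3 cultures, L122A cells had lower collagen transcripts than EGFP cells. In the additive fit, 7 of the 21 tested members fell in L122A against EGFP cells and 0 rose, where 1.99% of all tested genes fell and 0.893% rose. In WT against EGFP cells 2 members fell and 0 rose, where 0.286% of all tested genes fell and 0.0357% rose. These 2 comparisons share the EGFP libraries. No member passed the edgeR test for L122A against WT, where 0% of all tested genes did. In that test 2 members and 614 of the 13996 tested genes had an unadjusted p below 0.05. DESeq2 called 0 members in that comparison. The median log2 fold change of the members was -1.65 for L122A against EGFP, -1.05 for WT against EGFP and -0.38 for L122A against WT, and that of all tested genes was 0.01, 0.00 and 0.01. The count of 7 went to 0 without the L122A no-LIF library, to 3 without L122A RA, to 4 without WT LIF and to 11 without EGFP RA. The count of 2 went to 0 without WT RA, WT no-LIF, EGFP no-LIF or WT LIF, to 1 without L122A no-LIF or EGFP LIF and to 4 without L122A RA. The share of all genes is not given for the counts with 1 library left out, so these moves may hold for all genes.

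**Figure D5:**
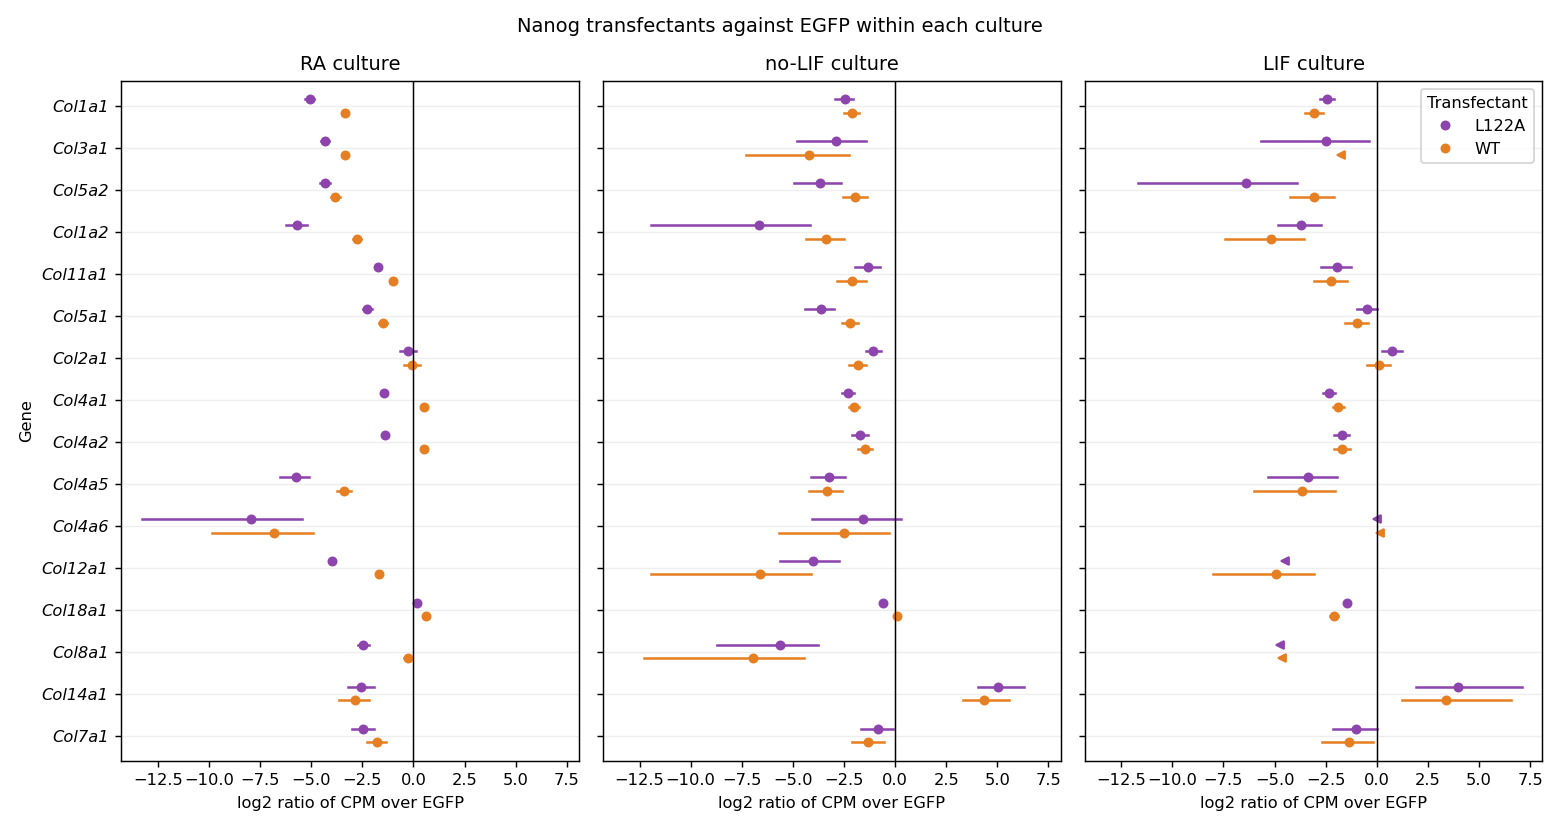
Log2 ratio of CPM over the EGFP library of the same culture (x axis) for the 16 genes (y axis) in L122A (purple) and WT (orange) cells, with RA (left), without LIF (middle) and with LIF (right). Bars are exact 95% Poisson intervals of counting error and triangles are upper bounds for a library with 0 counts. Col14a1 is the gene right of 0 in the 2 cultures without RA and left of it under RA, and Col4a1 and Col4a2 lie right of 0 under RA in WT cells alone of the 2 Nanog transfectants.

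The 7 members that fell in L122A against EGFP cells were 5 fibrillar genes, Col4a5 and Col12a1. Col1a2 fell by 5.10 on the log2 scale (SE 0.73, adjusted p = 0.0152), Col5a2 by 4.31 (SE 0.49, adjusted p = 0.00739) and Col3a1 by 3.85 (SE 0.51, adjusted p = 0.0116). Col1a1 fell by 3.29 (SE 0.55, adjusted p = 0.0263) and Col11a1 by 1.69 (SE 0.35, adjusted p = 0.0440). Col4a5 fell by 4.17 (SE 0.61, adjusted p = 0.0161) and Col12a1 by 4.76 (SE 0.83, adjusted p = 0.030004). All 7 calls were lost on leaving out the L122A no-LIF library, with adjusted p between 0.0526 and 0.153 over every library whose omission lost 1 of them. Col4a1 and Col4a2 had -2.12 ± 0.47 (adjusted p = 0.0558) and -1.65 ± 0.42 (adjusted p = 0.0793) and did not pass.

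In WT against EGFP cells, Col3a1 fell by 3.46 on the log2 scale (SE 0.46, adjusted p = 0.0287) and Col5a2 by 3.00 (SE 0.46, adjusted p = 0.0474). The Col3a1 call was lost without WT RA, EGFP RA, WT no-LIF, EGFP no-LIF or WT LIF (-4.68 to -3.28, adjusted p 0.0749 to 0.161). The Col5a2 call was lost without those 5 libraries, L122A no-LIF or EGFP LIF (-3.47 to -2.49, adjusted p 0.0532 to 0.305). Both genes had lower CPM in WT than in EGFP cells in each of the 3 cultures, as the values above show.

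Counted by single libraries, most members that reached 5 CPM were lower in the Nanog transfectants. Of 14 members with at least 5 CPM in either library under RA, 13 were at least 2-fold lower in L122A than in EGFP cells and 9 in WT than in EGFP cells, where 11.5% and 7.06% of all genes at that level were. Without LIF 9 of 11 members were lower in L122A cells and 9 of 11 in WT cells, where 10.7% and 8.25% of genes were. With LIF it was 5 of 5 in L122A cells and 5 of 5 in WT cells, where 5.28% and 5.18% of genes were. These counts share the EGFP library of each culture and carry no test. A member that reached 5 CPM in the EGFP library alone is lower in the other library by the entry rule. Without LIF this held for Col1a1, Col1a2, Col2a1, Col4a2, Col4a5, Col5a1, Col5a2 and Col8a1, and with LIF for Col1a1, Col1a2 and Col4a2. Under RA it held for Col4a5, Col4a6 and Col7a1, and in L122A cells also for Col1a2, Col5a2 and Col8a1. All genes in the shares entered by the same rule.

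A second fit gave the Nanog transfectants, L122A and WT together, 1 mean in each culture, so that WT against L122A supplied the spread and the single EGFP library of a culture was assumed to vary likewise. Under RA, Col1a1 fell by 3.95 (log2, SE 0.63, adjusted p = 0.0469) and Col3a1 by 3.76 (SE 0.48, adjusted p = 0.0243) in Nanog against EGFP cells, and no member rose, where 0.686% of all tested genes fell and 0.2% rose. The Col1a1 call was lost without L122A no-LIF, WT no-LIF, L122A LIF or WT LIF (log2 -3.95, adjusted p 0.0910 to 0.101), and the count went to 7 without WT RA and to 1 without L122A LIF or WT LIF. Single libraries under RA show the size: Col1a1 was 33.8 (29.1 to 39.4) and 10.04 (9.19 to 10.98) times lower in L122A and WT cells than in EGFP cells. Col3a1 was 20.2 (17.7 to 23.0) and 10.2 (9.26 to 11.3) times lower, and Col4a5 was 54.1 (34.0 to 91.7) and 10.5 (8.39 to 13.3) times lower. Col4a1 was 2.72 (2.62 to 2.82) times lower in L122A cells but 1.45 (1.41 to 1.49) times higher in WT cells. These intervals cover counting error and not the spread between cultures of cells. The share of all genes is not given for the counts with 1 library left out.

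Without LIF, 1 member rose and 2 fell in Nanog against EGFP cells, where 0.907% of all tested genes rose and 1.98% fell. Col14a1 rose by 4.72 ± 0.80 (log2, adjusted p = 0.0223), a call lost without the L122A no-LIF library (4.32, adjusted p = 0.0834). Col8a1 fell by 6.11 (SE 1.12, adjusted p = 0.0467) and was not called without L122A no-LIF, WT no-LIF, L122A LIF or WT LIF (-6.80 to -5.57, adjusted p 0.0624 to 0.214). Col5a1 fell by 2.74 (SE 0.58, adjusted p = 0.0454) and was not called without L122A no-LIF, L122A LIF or WT LIF (-2.74 to -2.20, adjusted p 0.0822 to 0.131). The count of 3 went to 0 without L122A no-LIF, to 1 without L122A LIF or WT LIF and to 10 without L122A RA or WT RA. With LIF, 0 members passed the edgeR test, where 0.0857% of all tested genes did. There 12 members and 1347 of the 13996 tested genes had an unadjusted p below 0.05. DESeq2 called 7 members, and the edgeR count went to 7 without L122A RA or WT RA. The share of all genes is not given for those counts, nor for the counts without LIF that left out 1 library.

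The difference between the RA response of Nanog and of EGFP cells passed the test for 0 members, where 0.00714% of all tested genes passed. For this difference 4 members and 1554 of the 13996 tested genes had an unadjusted p below 0.05. DESeq2 called 3 members, and the share of all genes is not given for that count. Leaving out L122A RA or WT RA gave 1 call. The 4 were Col8a1 at 8.61 ± 2.19 (log2, adjusted p = 0.310), Col14a1 at -6.29 ± 1.08 (adjusted p = 0.150), Col9a2 at 3.15 ± 1.11 (adjusted p = 0.383) and Col18a1. In the LIF libraries Col8a1 had 0 counts in both Nanog transfectants, so its fitted value depends on the prior count. The share of all genes is also not given for the count with 1 library left out.

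Genes that make and handle collagen were taken from 6 lists. Of 14 tested genes for prolyl and lysyl modification, 8 rose and 0 fell under RA against LIF where 24.5% of all tested genes rose and 23.8% fell. One of them, P4ha3, a catalytic subunit of prolyl 4-hydroxylase, passed the filter through the RA libraries alone, and 7 of the other 13 rose. P4ha3 had 1.46, 13.3 and 15.2 CPM in L122A, WT and EGFP cells under RA, and at most 0.611 CPM in the other libraries. P3h2, a prolyl 3-hydroxylase listed in the file as Leprel1, rose by 4.73 ± 0.58 (adjusted p = 6.95e-04). The summed CPM of the 15 listed genes did not rise in every transfectant. It was 613 and 846 CPM under RA in L122A and WT cells, against 866 and 949 CPM with LIF. In EGFP cells it was 1214 CPM under RA against 705 CPM with LIF. Of 10 tested genes for folding and export, 8 rose and 0 fell, with a median log2 fold change of 1.49 against 0.01 over all tested genes. Creb3l1, a transcription factor of secretory cells, rose by 2.11 ± 0.55 (adjusted p = 0.0142), and Sparc, a collagen-binding matrix protein, by 2.10 ± 0.47 (adjusted p = 0.00815).

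Of 12 tested genes for propeptide removal and cross-linking, 4 rose and 1 fell under RA against LIF, where 24.5% of all tested genes rose and 23.8% fell, so the share that rose was near that of all genes. Tll1, a tolloid-like protease that removes the C-propeptide, rose by 4.83 ± 0.40 (log2, adjusted p = 2.33e-04), and Loxl2, a lysyl oxidase, by 3.60 ± 0.75 (adjusted p = 0.00596). Pcolce2, an enhancer of procollagen C-proteinase, had 3.93, 2.22 and 2.87 CPM in L122A, WT and EGFP cells under RA, against 37.9, 49.3 and 25.6 CPM with LIF, and fell by 3.64 (SE 0.31, adjusted p = 2.66e-04). Both tested small proteoglycans of fibrils rose, Dcn (decorin) by 5.46 ± 0.72 (adjusted p = 8.57e-04) and Bgn (biglycan) by 3.22 ± 0.41 (adjusted p = 7.73e-04). Of 4 tested collagen receptors 2 rose: Mrc2, an endocytic receptor for collagen, by 3.95 ± 0.65 (adjusted p = 0.00225), and Itgb1, the beta-1 integrin subunit, by 1.52 ± 0.24 (adjusted p = 0.00174). Of 8 tested collagenases and inhibitors 6 rose and 0 fell. Timp3, an inhibitor of metalloproteinases, rose by 2.74 ± 0.52 (adjusted p = 0.00409) and Mmp15, a membrane-type metalloproteinase, by 2.73 ± 0.52 (adjusted p = 0.00348).

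The 6 lists held 50 tested genes. In L122A against EGFP cells, 4 of the 50 fell and 0 rose, where 1.99% of all tested genes fell and 0.893% rose. They were Bmp1, the procollagen C-proteinase, by 2.18 (log2, SE 0.42, adjusted p = 0.0358), Dcn by 4.81 (SE 0.72, adjusted p = 0.0183), Itgb1 by 1.28 (SE 0.24, adjusted p = 0.0341), and Ddr1, a collagen-binding receptor tyrosine kinase, by 2.99 (SE 0.59, adjusted p = 0.0392). Dcn had 0.787, 3.95 and 17.7 CPM in L122A, WT and EGFP cells under RA, 0.101, 0.245 and 2.06 CPM without LIF, and 0, 0 and 0.704 CPM with LIF. Under RA, 4 of the 50 fell in Nanog against EGFP cells, where 0.686% of all tested genes did: Loxl2 by 3.45, Mmp2, a gelatinase, by 3.15, Creb3l1 by 2.23 and Itgb1 by 1.42 (adjusted p between 0.0405 and 0.0497). Without LIF, 5 of the 50 fell in Nanog against EGFP cells, where 1.98% of all tested genes did: Sparc by 2.86 and Serpinh1, the collagen chaperone of the endoplasmic reticulum, by 2.22, together with Bmp1 by 2.56, Mmp14, a membrane-type metalloproteinase, by 1.74 and Itgb1 by 1.58 (adjusted p between 0.0163 and 0.0447). Under RA against no-LIF, 30 of the 50, P4ha3 among them, rose and 2 fell, where 22.6% of all tested genes rose and 21.9% fell. By list, in the order above, 8 of 14, 8 of 10, 4 of 12, 2 of 2, 2 of 4 and 6 of 8 genes rose. The 2 that fell were Pcolce2 by 2.73 (SE 0.30, adjusted p = 6.08e-04) and Mmp9, a gelatinase, by 1.79 (SE 0.48, adjusted p = 0.0171).

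Markers of other cell types moved with the collagens, and their part in the results was not tested. The 9 extraembryonic endoderm markers summed to 191, 535 and 276 CPM in L122A, WT and EGFP cells under RA, against 23.9 to 80.3 CPM in the 6 other libraries. Of the 9, Gata6 and Sox17 passed the filter through the RA libraries alone, and the other 7 rose under RA against LIF, where 24.5% of all tested genes rose. WT was the highest library of this sum under RA, as it was for Col4a1 and Col4a2. The laminin genes Lama1 and Lamb1 gave 210 and 152 CPM of the WT sum. Of the 9 markers, Gata6 alone was not highest in WT cells under RA, at 26.9 CPM against 34.0 CPM in EGFP cells. The 5 parietal endoderm markers, of which 4 were tested and 4 rose over LIF (24.5% of all tested genes did), summed to 741, 1797 and 3712 CPM under RA, against 149 to 1050 CPM elsewhere, and most of that sum was Sparc, which is also in the folding list.

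The 5 smooth muscle markers summed to 153, 658 and 5109 CPM in L122A, WT and EGFP cells under RA, 15.4, 21.7 and 1059 CPM without LIF, and 9.99, 9.17 and 244 CPM with LIF. Myh11 passed the filter through the RA libraries alone, and the other 4 rose under RA against LIF. Of the 5, 4 fell in L122A and 2 in WT against EGFP cells, where 1.99% and 0.286% of all tested genes fell. The EGFP library was the highest of each culture, as it was for Col1a1, Col3a1, Col5a2 and Col12a1. The 9 fibroblast and mesenchyme markers summed to 24.6, 33.3 and 87.5 CPM under RA, against 7.10 to 17.7 CPM elsewhere, and 5 of 6 tested rose over LIF, where 24.5% of all tested genes did. Lum (lumican) was at 0 in 8 of the 9 libraries and had 0.115 CPM in EGFP cells without LIF. Dcn is counted both in this list and among the proteoglycans.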

How the data were processed

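RNA from 9 RF8 mouse ES cell cultures was sequenced. Reads were aligned to mm9 with TopHat2 2.0.11, per the submitters' processing notes; the sources used here do not name the counter, its strand setting or a filter. The authors deposited 1 table of raw counts per Ensembl gene and of FPKM, normalized for length and depth, per the file headers. FPKM matched count, gene length and library total within rounding for 100% of genes above 5 FPKM. File starts count from 0 (for 9433 genes the length is stop minus start, for 0 it is 1 more) and 1 was added. Tested genes had at least 1 CPM, scaled by total counts alone, in at least 3 libraries. From the counts, the CPM given here were computed over tested genes with TMM factors of 0.810 to 1.26. edgeR designs were fitted (version 4.0.16, R 4.3.3) with culture plus transfectant (residual df 4, common BCV 0.325) and with Nanog or EGFP by culture (residual df 3, common BCV 0.287). A gene was called where its p, adjusted by Benjamini-Hochberg, was under 0.05; the SE is the log2 fold change over the root of F. DESeq2 1.42.0, limma 3.58.1 on log2(FPKM + 1), RLE and total-count scaling, no filter, other designs and leaving out each library were alternatives. The code was tested on simulated data. Single-library ratios carry exact 95% Poisson intervals, with 3 counts as the floor for 0. Members with 5 CPM in a library were described in full; of each list, the 2 called genes with the largest change each way were named. Start windows are RefSeq GRCm38.p6 sequences matched by symbol, and coordinates of that build and of mm9 were not mixed. The members and lists were chosen with earlier results of these data known. Of 109 list genes, 108 were matched; Itga10 was not analysed here.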

Additional observations from a re-analysis of the deposited data

Results flagged for a closer look

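Col18a1 was higher in the RA than in the LIF library of both Nanog transfectants (2.24 and 4.63 times in L122A and WT cells) and lower in EGFP cells (0.710 times), a difference of 2.18 between the mean log2 ratio of the Nanog transfectants and that of EGFP cells. For no-LIF against LIF the ratios were 1.24 and 3.14 in L122A and WT cells against 0.680 in EGFP cells, a difference of 1.54. Both responses share the LIF libraries, of which EGFP had the highest Col18a1 value, 55.1 CPM.

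Col14a1 was lower in the RA than in the no-LIF library of L122A and WT cells (0.0776 and 0.102 times) and 15.0 times higher in EGFP cells, a difference of -7.40.

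Col8a2, at most 28 counts in a library, had RA over LIF ratios of 3.52 and 5.51 in L122A and WT cells against 0.266 in EGFP cells, a difference of 4.05. For no-LIF against LIF its ratios were 5.61 and 6.63 against 0.285, a difference of 4.42.

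In each case the counting interval of all 3 ratios excluded 1. The differences were picked by that pattern over 41 genes and 3 pairs of cultures and were not tested in this form. For RA against LIF the edgeR test of the Nanog minus EGFP response gave Col18a1 an adjusted p of 0.273.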

How the results depend on the processing

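Each combination has 1 library, so a test measures departure from a fitted pattern and not the spread between cultures grown apart. The columns read as LIF rest on elimination. No pairing of replicates was possible, since each combination has 1 library and the labels give no replicate numbers. The additive design compares the cultures within transfectants. The 20 members that were not tested reached the filter minimum in too few libraries and had at most 225 counts in a library; 7 members had no library above 10 counts, where counting error is wide. Of 38 calls on members, 19 were kept on leaving out each library and 19 were lost on leaving out at least 1. Over all 593 alternative fits of those calls, 484 kept the call, 109 lost it and 0 reversed its direction.

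Counts of called members ranged, on leaving out 1 library, from 10 to 14 for RA against LIF, 8 to 11 for RA against no-LIF, 0 to 1 for no-LIF against LIF, 0 to 4 for WT against EGFP, 0 to 11 for L122A against EGFP and 0 to 0 for L122A against WT. For Nanog against EGFP they ranged from 0 to 7 with LIF, 0 to 10 without LIF and 1 to 7 with RA, and from 0 to 1 for the difference in response. With DESeq2 the counts were 9 for WT against EGFP, 11 for L122A against EGFP, 7, 9 and 6 for Nanog against EGFP with LIF, without LIF and with RA, and 3 for the response. With no filter they were 4 for WT against EGFP, 12, 12 and 11 for Nanog against EGFP with LIF, without LIF and with RA, and 7 for the response. With limma on log2 FPKM they were 0 for WT and for L122A against EGFP, 1 and 5 for Nanog against EGFP without LIF and with RA, and 2 for the response. Without the second factor they were 8 for RA against LIF, 5 for RA against no-LIF and 0 for WT and for L122A against EGFP. With only the compared levels fitted they were 1 for no-LIF against LIF and 5 for WT against EGFP. RLE factors gave 4 for Nanog against EGFP with RA; total-count scaling gave 0 there and 1 for WT against EGFP. The cause of these moves was not tested. The share of all tested genes called is not given for these alternatives. The counts thus do not tell a change in the members from a change over all genes.

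Summed collagen CPM in EGFP cells under RA was 1352 with RLE factors. With total-count scaling the sums were 357, 1091 and 1490 CPM in L122A, WT and EGFP cells under RA, 56.3 and 80.8 CPM in L122A and WT cells without LIF, and 48.7, 37.6 and 156 CPM with LIF. Summed FPKM was 51.2, 152.9 and 184 under RA, 8.77, 12.6 and 22.2 without LIF, and 7.59, 5.95 and 22.7 with LIF.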
